A study of Mus musculus with 2 samples.

Results

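The C1q-positive cells are 92 cells of sorted mouse bone marrow that held at least 10 unique molecular identifiers (UMIs, 1 for each RNA molecule captured) of C1qa, C1qb and C1qc together, at least 1000 UMIs in all, and less than 0.5% of their UMIs from Mcpt8, a protease of basophil granules. They were 92 of the 10113 cells with at least 1000 UMIs and of 10377 cells in all. The study asked which blood lineages the E-cadherin-bearing cells of mouse marrow belong to, and sequenced single cells of 2 sorts by droplet capture, E-cadherin+cKIT+ and E-cadherin+cKIT- (here cKIT+ and cKIT-), from mouse bone marrow, with 1 library for each sort. The strain label is FVB, and the study's text calls the mice wild-type in one place and VaviCre;mTmG in another, that is mice with a Cre transgene driven in blood cells and a membrane colour reporter, and with E-cadherin intact. No treatment is named for either group, the cells came from several mice that the libraries do not tell apart, and the age and sex of the mice are not given in the sources used here. The cKIT+ library held 95477153 UMIs and the cKIT- library 24033994, with a median of 13367 and 4504.5 UMIs in cells of at least 1000 UMIs. With 1 library per sort, no difference has a replicate check. All intervals below are exact 95% intervals that cover counting error only, and no p-value is given.

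C1q is the recognition part of the classical complement pathway. Its C1qa, C1qb and C1qc chains assemble into a molecule that binds immune complexes and dying cells, and tissue macrophages are a main source of it. In bone marrow, resident macrophages sit at the centre of islands of maturing red cells, hold them by the adhesion molecule Vcam1, and take up the nuclei the red cells expel. They also clear aged cells, split haem with haem oxygenase (Hmox1) and return the iron to the blood through ferroportin (Slc40a1). The factor Spic is known for the iron-recycling macrophages of spleen and marrow, and Cd5l is a secreted scavenger protein of resident macrophages.

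The C1q genes lie side by side on the minus strand of chromosome 4 (GRCm38): C1qa at 136895917 to 136898803, C1qb at 136880129 to 136886187 and C1qc at 136889804 to 136893065. Vcam1 lies on chromosome 3 at 116109949 to 116129688, and Cd5l on the same chromosome at 87357881 to 87371073. The sequence before the RefSeq start of C1qb and of Cd5l is printed because C1q chose the cells and Cd5l is a marker given for them that was found in few. The sequences are those of the C57BL/6J reference (RefSeq, GRCm38.p6), which may differ from that of FVB mice. They are written 5′ to 3′ on the gene's strand, and capitals mark matches on either strand to GAGGAA, a core of sites of the macrophage factor PU.1, or to TGCTGA, part of sites of the MAF family.
C1qb, 250 bases before the start, chr4:136886201-136886450, minus strand: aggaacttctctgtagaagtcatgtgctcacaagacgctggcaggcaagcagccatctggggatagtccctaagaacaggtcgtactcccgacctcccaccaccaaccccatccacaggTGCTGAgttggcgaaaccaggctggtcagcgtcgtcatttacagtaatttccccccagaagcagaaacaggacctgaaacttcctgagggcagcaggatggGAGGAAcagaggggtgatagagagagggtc
Cd5l, 250 bases before the start, chr3:87357631-87357880, plus strand: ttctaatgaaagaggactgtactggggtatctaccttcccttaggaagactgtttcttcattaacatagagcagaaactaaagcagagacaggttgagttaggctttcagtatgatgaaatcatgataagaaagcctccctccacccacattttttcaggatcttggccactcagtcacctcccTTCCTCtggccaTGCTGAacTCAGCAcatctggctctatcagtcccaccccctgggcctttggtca
GAGGAA was found 1 time before each of these genes, and is found in 23.3% of 32851 such regions of 250 bases before gene starts. TGCTGA was found 1 time before C1qb and 2 times before Cd5l, and is found in 16.1% of those regions. TTNNGCAA, a form of C/EBP sites, was found before neither gene and is in 9.56% of the regions. The region before C1qc, of 228 bases and not printed, held GAGGAA 1 time and TGCTGA 0 times. The matches do not overlap, and a match is only a description of the letters.

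Of the 92 cells, 88 came from the 6425 cKIT+ cells of at least 1000 UMIs (1.37%, 1.10 to 1.68) and 4 from the 3688 cKIT- cells (0.108%, 0.0296 to 0.277). The libraries differ in depth, and the part of depth in these shares was not tested directly. With C1q set at 0.1% of UMIs or more, the shares were 1.35% and 0.108%. The cKIT- library held 4 such cells with at least 5, 10 or 20 C1q UMIs. With 1 library per sort the shares are a description. The selected cells held between 1115 and 53000 UMIs with a median of 6064. None of the 10 cell barcodes that the libraries share belonged to a selected cell. Just inside the limit, 13 selected cells held 10 to 14 C1q UMIs, with a median of 12738 UMIs in all, of which the genes of neutrophil granules took a median of 0.414%. Just outside it, 25 cells under the Mcpt8 limit held 5 to 9 C1q UMIs, with a median of 14339 UMIs and a median neutrophil share of 6.51%.

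The selected cells differed in the RNA of other lineages. In 72 cells, 68 of cKIT+ and all 4 of cKIT-, C1q took a median of 1.38% of the UMIs and little RNA of another lineage was found. The other 20 cells, all of cKIT+, were set apart after the data were seen, by 3 limits: a neutrophil gene list at 1% or more of UMIs, a basophil list at 0.2% or more, or C1q under 0.1%. In the 20 cells C1q took a median of 0.088% of the UMIs and the median depth was 20358 UMIs, against 5337 in the 72 cells. Of the 20, 14 passed the neutrophil limit with 2.93% to 50.04% of their UMIs. In 7 of these the secondary granule and S100 genes of maturing neutrophils took 16.9% to 49.8%. Primary granule genes of early granulocyte progenitors stood at 1% or more in 7 of the 14, with 2.92% to 6.05%. These sets share at least 1 cell, and at least 1 of the 14 is in neither. The basophil limit was passed by 6 cells with 0.291% to 1.18%, 1 of which passed the neutrophil limit as well, and 1 cell fell below the C1q limit alone.

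**Figure D1:**
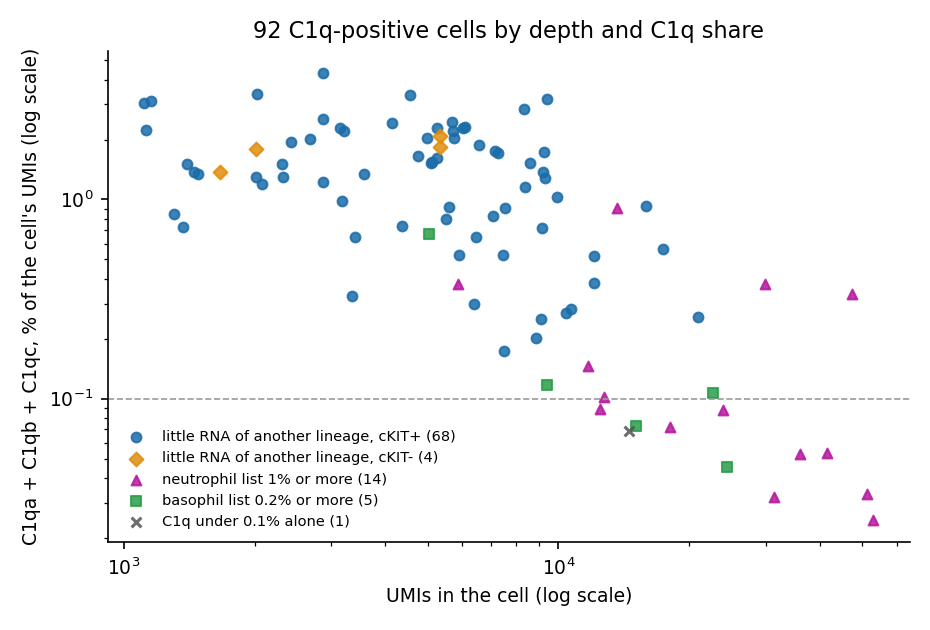
Each point is 1 of the 92 C1q-positive cells, placed by its UMIs (horizontal, log scale) and by the share of them from C1qa, C1qb and C1qc (vertical, percent, log scale), with colour and shape for the library and for the RNA of another lineage. The 72 cells with little other RNA lie above the dashed line at 0.1%, most of them to the left, with a median C1q share of 1.38%. The 20 others reach 53000 UMIs and have a median C1q share of 0.088%.

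The 20 cells held 53.2% of the UMIs of all 92 (479429 of 900874), so sums over the 92 cells give them more weight than their number. They held 99.7% of the selected cells' S100a9 UMIs and 99.6% of their Elane UMIs, which follows from the neutrophil limit, since both genes are in that list. Against the 72 cells, the 20 had 262 of 3794 genes (6.91%) at least 4-fold higher and 532 (14%) lower, and nothing is read from these shares because the limits chose the cells. A doublet caller, Scrublet, marked 6 of the 20 and none of the 72, and 10 of the 20 against 1 of the 72 held at least 20000 UMIs. Whether 2 cells in a droplet, free RNA or RNA taken up by the macrophage gave this mixture was not tested. Counts of genes in the main lists are therefore given for all 92 cells and for the 72. Levels are those of the 72 cells unless the 92 are named, and for the main genes the level over the 92 stands beside them in brackets.

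The label of bone marrow macrophages was checked against its markers. C1qa reached 2992 CPM (UMIs of the gene per 1e+06 UMIs, summed over the 92 cells), against 3.53 CPM in the 10021 other cells of at least 1000 UMIs, C1qb 2034 against 2.41, and C1qc 1596 against 1.77. These genes chose the cells. Vcam1 was found in 84 of the 92 cells at 1037 CPM (971 to 1105), against 8.66 CPM in the other cells. In the 72 cells Vcam1 was at 1953 CPM (1822 to 2091) and was found in 66. Cd5l was scarce: 36 UMIs in 12 of the 92 cells (40.0 CPM) and 33 UMIs in 9 of the 72 (78.3 CPM), against 0.236 CPM in the other cells. By library, Vcam1 stood at 1006 CPM in the 88 cKIT+ cells and 2926 CPM in the 4 cKIT- cells, and Cd5l at 36.1 CPM and 279 CPM, the latter from 4 UMIs. The macrophage markers were thus present, with Cd5l in few cells.

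All 3 C1q chains were found in each of the 92 cells. C1qa gave 45.2% of the 5965 C1q UMIs, C1qb 30.7% and C1qc 24.1%. The split was 44.5%, 31.1% and 24.4% in the 72 cells, and 50.1% (46.3 to 54.0), 27.7% and 22.1% in the 20. The 298 other cells with 1 to 9 C1q UMIs held 609 in all, split 42.0%, 32.2% and 25.8%, and 32 of them held all 3 chains. In these sums C1qa was the most abundant chain and C1qc the least, which need not hold in single cells with few C1q UMIs.

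Against all other cells, 277 of 3427 genes (8.08%) stood at least 4-fold higher over the 92 cells and 82 (2.39%) at least 4-fold lower, among genes with at least 50 CPM in 1 of the groups. With the 72 cells alone it was 583 of 3824 (15.2%) higher and 314 (8.21%) lower. The median log2 ratio of all genes tested was -0.08 and -0.01. The gene lists below are read against these shares, and since the cells were chosen by C1q within the same data, their counts describe the cells and test nothing. Genes scarce in the other cells reach 50 CPM only by being high in the C1q-positive cells. That limit by itself sets many of them 4-fold higher.

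Genes that define macrophages were high together. All 13 of the macrophage identity list with at least 50 CPM stood 4-fold higher in the 92 cells, and all 15 in the 72. The median log2 ratio in the 72 was 7.59. Lyz2 gave 93.3% of the list's 883 CPM in the other cells. The rest were scarce there and mostly reached 50 CPM through the C1q-positive cells, so the full tally follows largely from that limit. Csf1r, the receptor for the growth factor macrophages depend on, was at 937 CPM in the 72 cells (483 in the 92) and found in 64, against 4.87 CPM in the other cells. Adgre1, which encodes F4/80, was at 420 CPM (214 in the 92) in 56 cells, against 2.29 CPM. The mannose receptor Mrc1 was at 1099 CPM (573 in the 92) in 68 cells, against 1.70 CPM, and the high-affinity IgG receptor Fcgr1 at 176 CPM against 0.253. Lyz2, lysozyme of all myeloid cells, was abundant at 11691 CPM but also at 823 CPM in the other cells, a ratio of 14.2. Cx3cr1, the fractalkine receptor, was uneven, with 759 CPM from 43 of the 72 cells.

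Of the list of resident marrow macrophages, 8 of 8 genes tested were higher in the 92 cells and 12 of 12 in the 72. The median log2 ratio in the 72 was 8.37. The whole list summed to 39.7 CPM in the other cells, so its genes reached 50 CPM only through the C1q-positive cells. The full tally follows from that limit, and nothing is read from it. Fcna, a ficolin that binds sugars on microbes, was at 1006 CPM (524 in the 92) in 49 of the 72 cells, against 1.22 CPM in the other cells. Spic was at 707 CPM (347 in the 92) in 60 cells, against 0.912 CPM, and Axl, a receptor for dying cells, at 1023 CPM in 68. The phosphatidylserine receptor Timd4 was found in 21 of the 72 cells with 45 UMIs, and the sialic acid receptor Siglec1 (CD169) in 16 with 22 UMIs. Marco had 29 UMIs in 8 cells, 48.3% of them in 1 cell. The haemoglobin scavenger Cd163 had 9 UMIs in 5 cells, the complement receptor Vsig4 had 4 UMIs in 1 cell, and Clec4f, a Kupffer cell gene, had 0 UMIs. The list was thus carried by Hmox1 (39.3% of its UMIs), Vcam1, Slc40a1, Axl, Fcna and Spic.

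**Figure D2:**
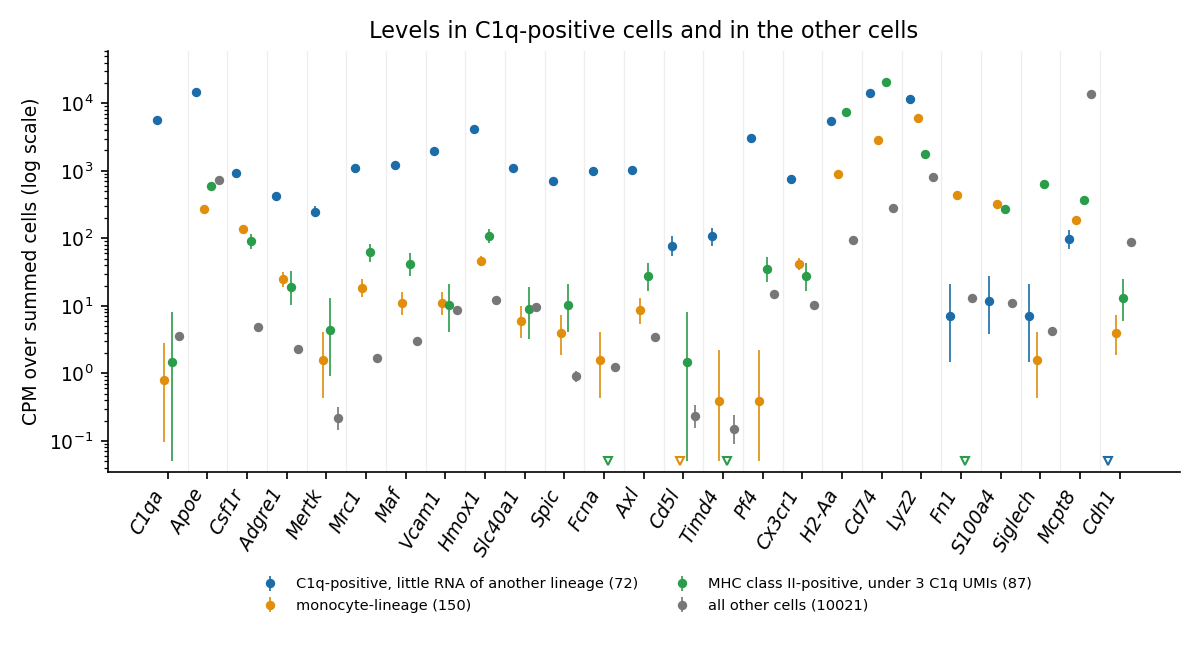
Summed level of 25 genes (vertical, CPM, log scale) in the 72 C1q-positive cells with little RNA of another lineage, in monocyte-lineage cells, in MHC class II-positive cells with under 3 C1q UMIs, and in all other cells; bars are exact 95% Poisson intervals (counting error), cut at the axis, and open triangles mark 0 UMIs. Csf1r to Timd4 stand above the other 3 groups, H2-Aa and Cd74 are highest in the MHC class II-positive cells, and Cdh1 has 0 UMIs in the 72 cells.

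Genes for haem and iron handling took a large part of the RNA. The list summed to 52204 CPM in the 72 cells and 3692 CPM in the other cells, with 9 of 15 genes 4-fold higher and 1 lower. In the 92 cells 7 of 14 were higher. Hmox1 was at 4141 CPM (2040 in the 92) in 63 of the 72 cells, against 12.4 CPM in the other cells, 46.4 CPM in monocyte-lineage cells and 108 CPM in the MHC class II-positive cells. Slc40a1 was at 1103 CPM (564 in the 92) in 53 cells, against 9.47 CPM. The ferritin chains Ftl1 and Fth1 were at 25828 CPM and 17672 CPM, ratios of 16.5 and 12.8 to the other cells. Both were also 4-fold higher than in monocyte-lineage cells, but Fth1 was within 4-fold of the MHC class II-positive cells. The list summed to 6178 CPM and 10848 CPM in these 2 groups. Biliverdin reductase B (Blvrb) was at 833 CPM, a ratio of 8.64. Hp, the serum protein haptoglobin that neutrophils also store, had 0 UMIs in the 72 cells and was the gene that stood lower. Its 233 UMIs in the selected cells were all in the 20 cells set apart.

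Genes for taking up dying cells and digesting them were higher as well. Of the efferocytosis list, 10 of 11 genes tested were higher in the 72 cells (9 of 11 in the 92). The list summed to 149 CPM in the other cells, 29.9% of it from its top gene Elmo1. Its genes thus reached 50 CPM only through the C1q-positive cells. The tally follows largely from that limit, and nothing is read from it. Of the 20 genes of the list, 5 had 0 UMIs in the 72 cells. Mertk was at 249 CPM (124 in the 92) in 36 cells, against 0.220 CPM in the other cells, its bridging ligand Gas6 at 142 CPM in 33 cells, and the scavenger receptor Stab1 at 446 CPM in 43. Of the lysosomal list, 20 of 26 were higher (16 of 25 in the 92). The saposin precursor Psap was at 5771 CPM (2945 in the 92), a ratio of 46.7 to the other cells, cathepsin B (Ctsb) at 4214 CPM and the asparagine endopeptidase Lgmn at 1001 CPM, a ratio of 339. Fewer lysosomal genes were 4-fold higher against the groups most like these cells. It was 12 of 26 against monocyte-lineage cells, and 10 of 27 with 1 lower against the MHC class II-positive cells. Over all genes tested, 10.5% and 7.71% were higher. Psap was within 4-fold of both groups. Lipid handling genes were higher in 11 of 13 (10 of 11 in the 92). Apoe, the lipid carrier, was the highest at 14773 CPM (7769 in the 92) and was found in all 72 cells, with a ratio of 19.9 since the other cells held 744 CPM. Lipoprotein lipase (Lpl) was at 1516 CPM and the cholesterol exporter Abca1 at 285 CPM.

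Complement genes other than C1q were less uniform. Of 22, 12 passed the level limit, 6 were higher in the 72 cells (4 of 9 in the 92) and none was lower. Properdin (Cfp), which stabilises the alternative pathway's enzyme, was at 997 CPM in 68 cells. The receptors C3ar1 and C5ar1 and the uptake receptors Cd93 and Lrp1 were among the higher genes. C2 and C4b, which act after C1 in the classical pathway, and the C1 protease C1s1 had 0 UMIs in all 92 cells. So had Serping1, which encodes the inhibitor of C1. C3 had 29 UMIs in 16 of the 72 cells (68.8 CPM) against 30.8 CPM in the other cells.

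Among secreted signals, Pf4, a chemokine best known from platelets, was at 3011 CPM (1453 in the 92) in 48 of the 72 cells, against 15.1 CPM in the other cells. It made up 99.7% of the UMIs of the megakaryocyte list in the 72 cells. Ppbp, the other abundant platelet chemokine, had 1 UMI. The growth factor Igf1 was at 498 CPM (243 in the 92) in 54 cells, against 0.431 CPM, and Il18 at 197 CPM in 36. Kitl, the ligand of cKIT, had 14 UMIs in 11 cells, 33.2 CPM against 0.135 CPM in the other cells. Ccl8 was concentrated, with 111 UMIs in 11 cells and 53.2% of them in 1 cell, and so was Cxcl9, with 45 UMIs in 6 cells, most of them in 1. The chemokines Ccl3, Ccl4 and Ccl9 were at least 4-fold lower, Ccl3 at 42.7 CPM against 315 CPM.

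Of 14 transcription factors tested in the 72 cells, 9 were at least 4-fold higher and 2 lower (6 of 12 higher and 1 lower in the 92). Maf, a factor that keeps macrophages differentiated, was at 1222 CPM (626 in the 92) in 62 cells, against 3.07 CPM in the other cells. Nr1h3, the sterol sensor LXR alpha, was at 214 CPM in 39 cells. Irf8 was at 467 CPM, below its 551 CPM in monocyte-lineage cells. Gata2, a factor of basophils and mast cells, and Runx3 were lower, Gata2 at 18.98 CPM against 612 CPM. Gata2 is in the basophil list that set the 20 cells apart, and in the 92 it stood at 78.8 CPM. The lists of genes with the highest ratios held further macrophage genes: Ms4a7 at 1288 CPM, Pla2g2d, a secreted phospholipase, at 631 CPM in 39 cells, the endocytic adaptor Dab2 at 377 CPM in 41, and the lectin Cd209f with 97 UMIs in 17. Ccr3, the eotaxin receptor, is named outside the fixed rule, because of its values. It had 66 UMIs in 30 of the 72 cells (157 CPM), against 4.47 CPM in the other cells and 0 UMIs in the monocyte-lineage and the MHC class II-positive cells.

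**Figure D3:**
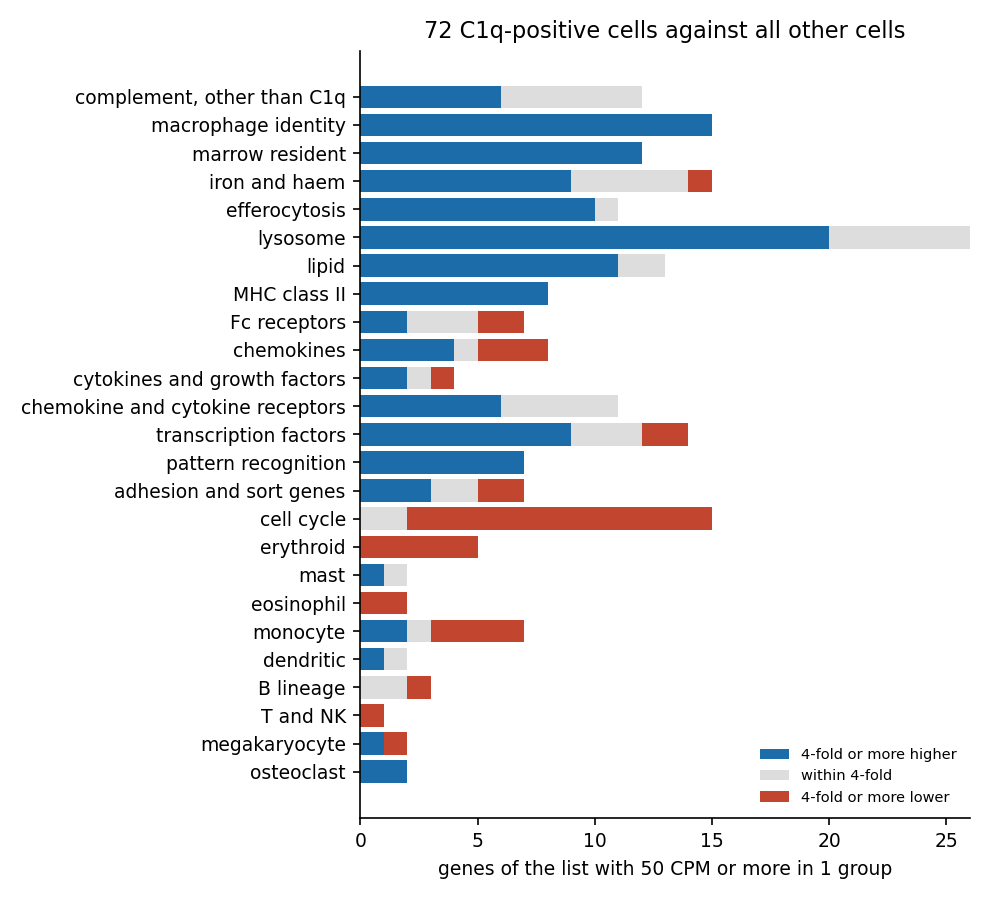
For each gene list shown (rows), the number of genes with at least 50 CPM in 1 group (horizontal) that stood 4-fold or more higher (blue), within 4-fold (grey) or 4-fold or more lower (red) in the 72 C1q-positive cells than in all other cells. The C1q, neutrophil and basophil lists, which chose the cells, and lists with no gene tested are left out. The macrophage, resident, MHC class II, pattern recognition and osteoclast lists are wholly blue with 15, 12, 8, 7 and 2 genes. Cell cycle is red in 13 of 15. The resident and pattern recognition lists summed to 39.7 and 77.6 CPM in the other cells. Their genes passed 50 CPM through the 72 cells, so their blue follows largely from that limit. Over all genes 15.2% stood higher and 8.21% lower.

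The genes of the sort were low in the C1q-positive cells. Cdh1, which encodes E-cadherin, had 3 UMIs in the 92 cells (3.33 CPM) and 0 in the 72, where 3 counts would give 7.12 CPM, against 86.9 CPM in the other cells. Kit was low in all groups, at 41.1 CPM in the 92 cells, 16.6 CPM in the 72 and 29.9 CPM in the other cells. Of its 37 UMIs in the 92 cells, 30 (81.1%) were in the 20 cells set apart. Whether the cells carried the sorted proteins on their surface was not measured by these data.

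Markers of other lineages were counted in cells thinned to 1000 UMIs each. Mcpt8, which the selection limits, was found in 8.33% of the 72 cells and 72.6% of the other cells, and Prss34, another basophil protease, in 9.72% and 59.96%. Prss34 was not used to select the 92 cells, of which 9.78% held it, but it is in the basophil list that set the 20 cells apart. At full depth Prss34 had 154 CPM in the 72 cells, 231 CPM in monocyte-lineage and 176 CPM in the MHC class II-positive cells, so its level in the 72 cells was no higher than in these 2 groups. S100a8 or S100a9 was found in 34.7% of the 72 thinned cells and 16.0% of the other cells, and the neutrophil list in 45.8% and 77.4%. At full depth S100a9 stood at 92.5 CPM in the 72 cells and 7739 CPM in the others, so no order is read from the S100 shares either. Haemoglobin genes were found in 9.72% of the 72 thinned cells and 2.48% of the others, while the level of Hbb-bs was 102 CPM against 1119 CPM, so no order is read from these values. The red cell genes Slc4a1, Alas2, Epb42 and Rhag had 0 UMIs in the 92 cells. The osteoclast genes Acp5 (311 CPM) and Mmp9 (142 CPM, 11 cells) were higher than in the other cells, while Ctsk, Ocstamp and Calcr had 0 UMIs. The mast cell gene Cma1 had 30 UMIs in the 72 cells, all in 1 cell. Endothelial and epithelial lists had 0 UMIs in the 72 cells, and the stromal list had 20, of which 70.0% were Kitl. The part of these lineages in the results was not tested.

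Cell cycle genes were low in the 72 cells. Of 15 tested, 13 stood 4-fold lower than in the other cells, with a median log2 ratio of -3.28, whereas over all 92 cells none of 15 did. At 1000 UMIs, 2 or more cell cycle UMIs were found in 6 of the 72 cells (8.33%, 3.12 to 17.3), in 70.0% of the 20 cells set apart, in 12.6% of the MHC class II-positive cells and in 58.7% of the other cells. The share over all 92 cells was 21.7% (13.8 to 31.6). Within the 72, 2 cells held 89 and 68 cell cycle UMIs of 8384 and 9140 in all, with 97 and 23 C1q UMIs, and the next highest cell held 9. Free RNA of cycling cells could add to such counts, which was not tested.

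Monocyte-lineage cells were compared first. They were 150 cells (104 of cKIT+ and 46 of cKIT-) with Csf1r, at least 10 UMIs of Ly6c2, F13a1, Ccr2, Ms4a6c and Fn1 together and under 3 C1q UMIs. Of these, 60 held 1% or more of their UMIs in the neutrophil list, so granulocyte genes are part of this group. Against them, 178 of 3407 genes (5.22%) were at least 4-fold higher in the 92 cells and 28 (0.822%) lower, and 397 of 3790 (10.5%) higher and 240 (6.33%) lower in the 72. With the same weight for every cell the counts for the 92 were 271 and 90. The 12 resident genes tested were all higher in the 72 cells, and 14 of 15 macrophage genes. The resident list summed to 84.8 CPM in monocyte-lineage cells, so its genes passed 50 CPM through the 72 cells, and nothing is read from this tally. Slc40a1 stood 186-fold higher (111 to 334), Stab1 282-fold (108 to 1044), Igf1 419-fold (142 to 2050) and Fcna 635-fold (246 to 2341). These folds rest on 15, 4, 3 and 4 UMIs in the monocyte-lineage cells. Pla2g2d had 0 UMIs in the monocyte-lineage cells, which gives a fold of 531 with 3 counts assumed there and an exact lower limit of 429. Lyz2 was within 4-fold, at 11691 CPM against 6073 CPM. Fn1, fibronectin, was at 7.12 CPM against 446 CPM, and the 12 UMIs of Ly6c2, the antigen of inflammatory monocytes, all came from 1 of the 72 cells. Since Fn1 and Ly6c2 helped to choose the monocyte-lineage cells, they are a description only. S100a4 and Ms4a4c, which chose neither group, had 6 and 5 UMIs in the 92 cells, against 322 CPM and 122 CPM in monocyte-lineage cells.

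The second comparison was with 87 MHC class II-positive cells (67 of cKIT+ and 20 of cKIT-) with at least 10 UMIs of H2-Aa, H2-Ab1 and H2-Eb1, at most 2 UMIs of 3 B cell genes and under 3 C1q UMIs. They held Siglech, a gene of plasmacytoid dendritic cells, at 634 CPM, the top gene by ratio among those lower in the C1q-positive cells. They also held neutrophil RNA, with S100a9 at 4501 CPM, Camp at 2268 and Ngp at 1434, of which the top cell for each gene gave 80.9%, 71.8% and 76.4%, and 247 UMIs of Ctsk, all in 1 cell. These 4 genes are among those lower in the 72 cells, and the part of this RNA in the counts was not tested. Here 126 of 3509 genes (3.59%) were 4-fold higher in the 92 cells and 113 (3.22%) lower, and 288 of 3734 (7.71%) higher and 186 (4.98%) lower in the 72. With the same weight for every cell the counts for the 92 were 268 and 156. Vcam1 stood 189-fold higher in the 72 cells (91.4 to 472), Slc40a1 125-fold (56.9 to 342) and Spic 68.5-fold (32.8 to 172). These rest on 7, 6 and 7 UMIs in the 87 cells. Fcna, at 0 UMIs there, stood 227-fold higher with 3 counts assumed, and its exact lower limit was 184-fold. The MHC class II list stood 4-fold higher than in all other cells in 8 of 8 genes in the 72 cells and in 7 of 8 in the 92. The 87 cells were chosen by 3 of its genes, so the levels set beside them are a description. The list summed to 25488 CPM in the 72 C1q-positive cells and 37067 CPM in the 87 cells, with Cd74 at 14085 CPM against 20937 CPM and H2-Aa at 5467 CPM against 7504 CPM. Ciita, their master regulator, was at 92.5 CPM against 245 CPM. In all other cells the list summed to 544 CPM.

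The 72 cells varied in MHC class II, the molecules that present antigen to helper T cells. The share of UMIs from H2-Aa, H2-Ab1, H2-Eb1 and Cd74 was ranked and cut into 3 sets of 24 cells, at 0.622% and 2.65%, with 6 and 8 cells within 20% of these cuts. This is a range and not a cell type. The sets had a median of 3244.5, 5290.5 and 6809.5 UMIs from the lowest to the highest, and a median mitochondrial share of 6.16%, 5.01% and 4.73%, whose part in the values below was not tested. From the 24 lowest to the 24 highest, Vcam1 went from 2681 CPM through 2488 to 1060, a ratio of 0.40 (0.33 to 0.48). Hmox1 went from 6076 CPM through 4192 to 2805, and the ferritins Ftl1 and Fth1 were at ratios of 0.64 and 0.63. Fcna and Slc40a1 were highest in the middle set and at ratios of 0.35 and 0.50 between the ends. Cd5l had 23, 10 and 0 UMIs in the 3 sets.

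Further genes moved in either direction. Pf4 went from 1762 CPM through 2975 to 3876, a ratio of 2.20, Cx3cr1 was at a ratio of 1.98, Ms4a7 at 1.68 and Apoe at 1.63. Ccl8 had 1, 14 and 96 UMIs, the last from 6 cells. Ccr2, a chemokine receptor of monocytes, had 1, 4 and 36 UMIs, the last from 5 cells. The lectin Clec10a, also named outside the fixed rule because of its values, had a Spearman correlation of 0.53 with the MHC class II share within the 72 cells. Its correlation with UMIs was 0.56 there. Ms4a6c, a gene that chose the monocyte-lineage cells, had a correlation of -0.62 with Vcam1. The part of monocyte RNA in this range was not tested. C1qa was at a ratio of 0.90, Adgre1 at 0.97, Spic at 0.99 and Mrc1 at 1.12. C1qb was at 0.83 (0.74 to 0.94) and C1qc at 0.81 (0.71 to 0.93). Mertk was at 0.53 (0.29 to 0.95) and Timd4 at 0.40 (0.16 to 0.98), both highest in the middle set. Timd4 rested on 15, 21 and 9 UMIs. In thinned cells it was found in 1 cell of the lowest set and 4 of the highest, so no order is read from it. Within the 72 cells the MHC class II share and the summed share of the resident list had a Spearman correlation of -0.40 at full depth and -0.40 at 1000 UMIs, over cells that come almost all from 1 library. Depth moved with both: the correlation with UMIs was 0.40 for MHC class II and -0.47 for the resident list. These are descriptions over cells, and the part of depth in them was not tested beyond the thinned value.

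**Figure D4:**
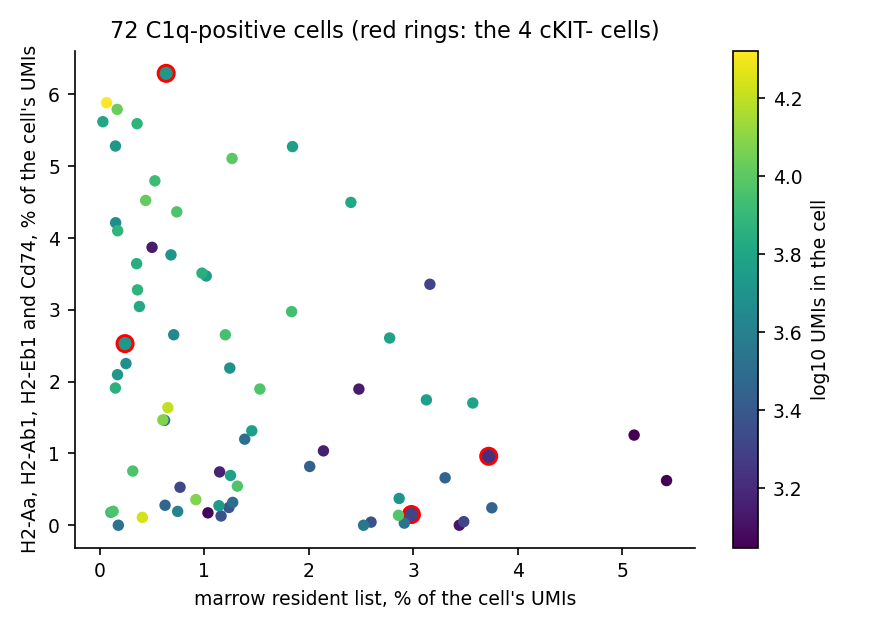
Each point is 1 of the 72 C1q-positive cells, placed by the share of its UMIs from the resident list (horizontal, percent) and from 4 MHC class II genes (vertical, percent), with colour for log10 UMIs and red rings for the 4 cKIT- cells. Few cells are high in both, and the Spearman correlation is -0.40.

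**Figure D5:**
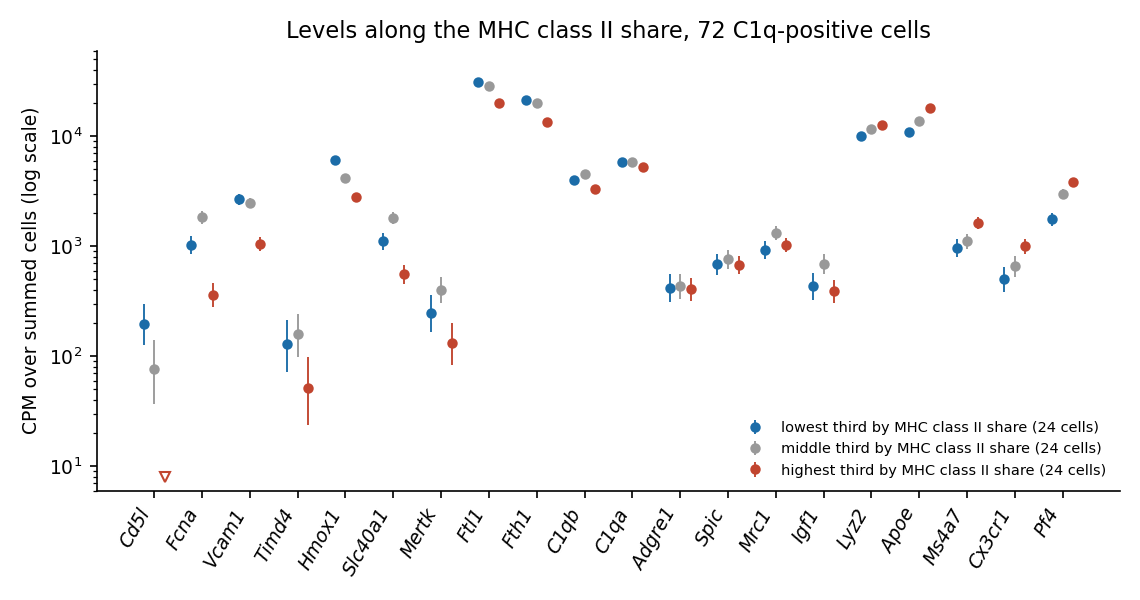
Summed level (vertical, CPM, log scale) of 20 genes in the 24 cells with the lowest, the middle and the highest MHC class II share; bars are exact 95% Poisson intervals and the open triangle marks 0 UMIs. Vcam1, Hmox1, Ftl1 and Fth1 are lower and Apoe, Cx3cr1 and Pf4 higher at the high end, while the ratios of Spic and Adgre1 are 0.99 and 0.97.

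The 4 cKIT- cells covered the same range. They held 1666, 2012, 5336 and 5338 UMIs, with 23, 36, 98 and 111 of C1q. Vcam1 had 24, 15, 0 and 3 UMIs in the same order, and Fcna 7, 10, 0 and 0. Cx3cr1 had 0, 0, 14 and 8 UMIs, and Cd74 10, 0, 89 and 206. The first and second cells were thus high in Vcam1 and Fcna, and the others in Cx3cr1 and Cd74. Hmox1 was found in all 4, with 21, 18, 4 and 20 UMIs, and the neutrophil list had 0 UMIs in the 4 cells. Between the libraries, 232 of 2167 genes (10.7%) were 4-fold higher in the 88 cKIT+ cells and 271 (12.5%) in the 4 cKIT- cells, among genes with at least 100 CPM and 20 UMIs in 1 of them. The cKIT+ side was led by S100a9, S100a8, Camp and Elane, which the 20 cells set apart carry. The cKIT- side was led by Klf2, whose 20 UMIs were all in 1 cell. At 50 CPM in place of these minimums, 857 genes were higher in cKIT+ and 928 in cKIT-, and TMM scaling turned this into 1630 and 91, so the split between the libraries rests on the scaling. With 14352 UMIs in the 4 cells, a gene with 0 UMIs could still stand at 209 CPM (3 counts).

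Across the 92 cells, the genes whose level went most closely with the C1q share were Itm2b (Spearman correlation 0.76), Mrc1 (0.68), Fcer1g (0.67), Cst3 (0.63) and Fcgrt (0.61), among 2975 genes found in at least 30% of the cells. With Vcam1 they were Axl (0.79), Fcna (0.71), Slc40a1 (0.68), Igf1 (0.66) and Ctsd (0.66). The cells share 2 libraries and differ in the RNA of other lineages, whose part in the correlations was not tested. These values are a description. Within the 72 cells the values were 0.59 for Itm2b and 0.49 for Mrc1 with the C1q share, and 0.78 for Fcna, 0.74 for Axl and 0.67 for Slc40a1 with Vcam1. There depth was shared too, since the correlation with UMIs was -0.52 for Vcam1, -0.50 for Fcna, -0.40 for Axl and -0.40 for the C1q share.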

How the data were processed

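Single-cell RNA was measured in 2 libraries, 1 for each sort. Unnormalized UMI counts were deposited by the authors for every gene in every barcode. The submitters' processing notes name Cell Ranger 3.0.2 and mm10, and the gene annotation behind them is not given in the sources used here. The files hold 6632 cKIT+ and 3745 cKIT- barcodes, as many as the methods give before filtering. The filter stated there, on the most extreme 1% of cells by genes and UMIs, left 6480 and 3663 when rebuilt, and was used only as an alternative. The labels give FVB as the strain. The counts were summed over cells and scaled to CPM. A gene was called past 4-fold with at least 50 CPM in 1 group, and a sum under 3 UMIs was counted as 3 when genes were ranked and where a fold is given as a lower bound. Intervals are exact Poisson for sums, exact binomial (Clopper-Pearson) for shares, and exact binomial for ratios. PCR copies are removed by UMIs, so intervals cover counting error of molecules only. Cells were thinned without replacement to 1000 UMIs to compare shares. Gene positions come from GENCODE M21 (GRCm38), in which 30934 of the 31053 gene identifiers were found, and promoter sequences from RefSeq.

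Genes were named from 31 lists, from the 25 highest and 10 lowest ratios to the other cells, from the 8 most extreme in each direction against each other group, and from the 10 best correlated. The cells, lists and tests were chosen with earlier results of these data known. Doublets were not removed: Scrublet (scanpy 1.11.5), run on each library, marked 292 cKIT+ cells and 3 cKIT- cells, and was used as an alternative. Since it marked under 0.5% of the cKIT- cells, the alternative left out the highest scores of each library at a fixed rate (0.8% per 1000 cells). TMM factors came from edgeR 4.0.16, for scaling alone. Analyses used Python 3.11.15, numpy 2.4.6, scipy 1.17.1 and R 4.3.3. The ratio step was tested on simulated data of the comparison with all other cells, over 2846 genes, and recovered 100 of 100 genes raised 8-fold and 98 of 100 lowered 8-fold. Figures were drawn with matplotlib 3.10.9. Some genes of the lists are counted but their values are not reported here.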

Additional observations from a re-analysis of the deposited data

Results flagged for a closer look

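C1q was also found in cells that the Mcpt8 limit kept out. In the cKIT+ library 4 cells with at least 10 C1q UMIs held 0.516% to 4.56% of their UMIs from Mcpt8, and they carried 304 C1q UMIs in all (25, 31, 37 and 211). This is 2880 CPM of their 105558 UMIs. They were picked for their C1q UMIs, so this level is a description. The same cells held 65 UMIs of Hmox1 and 38 of Vcam1. They were counted with the other cells, where they stand beside 609 C1q UMIs in the 298 cells of 1 to 9, except in the alternative with no limit on Mcpt8, which counts them as C1q-positive. The origin of their C1q was not tested.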

How the results depend on the processing

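The C1q-positive share of cKIT+ cells was 1.76% with at least 5 C1q UMIs, 1.09% with at least 20, and 1.06% without the cells with much RNA of another lineage, a choice made after seeing the data. Against all other cells, counts of genes past 4-fold higher and lower were 277 and 82. They became 449 and 219 with the same weight for every cell, 1277 and 3019 with at least 10 UMIs in place of 50 CPM, 78 and 27 at 200 CPM, 507 and 259 at 2-fold, 423 and 146 with at least 20 C1q UMIs, 443 and 153 with C1q at 0.1% or more, 583 and 314 without the 20 mixed cells, and 1396 and 1093 in the cKIT- library alone. The lower count alone moved to 54 with at least 5 C1q UMIs, 53 with no limit on Mcpt8 and 49 in the cKIT+ library alone. The counts in the cKIT- library alone rest on 4 C1q-positive cells with 14352 UMIs, where a single UMI already passes 50 CPM. Against monocyte-lineage cells 178 and 28 became 271 and 90 with the same weight, 539 and 178 at 10 UMIs, 54 and 10 at 200 CPM, 378 and 158 at 2-fold, and 397 and 240 without the 20 cells. Against the MHC class II-positive cells 126 and 113 became 351 and 347, 47 and 39, 361 and 318, and 288 and 186 under the last 4 of these settings, and the higher count was 268 with the same weight. Between the libraries 857 and 928 genes passed at 50 CPM. TMM, which shifts all log2 ratios by 1.03, gave 1630 and 91. The higher count was 4190 at 10 UMIs and 72 at 200 CPM, and the lower one 443 with the same weight, 172 at 200 CPM and 2017 at 2-fold.

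Shares of C1q-positive cells with a UMI rose with depth: without thinning, basophil genes went from 28.3% to 83.7%, neutrophil genes from 55.4% to 88.0%, haemoglobin from 9.78% to 27.2%, eosinophil genes from 4.35% to 17.4% and B-lineage genes from 29.3% to 67.4%. With at least 2 UMIs they were 10.9% for basophil, 28.3% for neutrophil, 0% for eosinophil and 5.43% for B-lineage genes. The share with 2 or more cell cycle UMIs went from 21.7% to 54.3% without thinning, and was 8.33% without the 20 cells. The cause of the moved counts was not tested. The split between the libraries changed sides under TMM. Without the 20 cells S100a9 fell below the other cells (16862 to 92.5 CPM, against 7739), and the neutrophil list's median log2 ratio went from 1.17 to -6.28, as the limit on that list sets. Of the levels of single genes, 44 stayed within counting error and 82 moved, all 14 of those followed without the 20 cells. No paired analysis was possible because each sort has 1 library, so no replicate could be left out either.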
